A study of Mus musculus with 20 samples.

Results

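Microglia of mice labelled hC4A/- were compared with microglia of mice labelled hC4B/-, gene by gene. Members were chosen by the genotype in the sample titles, which gave 5 hC4A/- libraries and 4 hC4B/- libraries of the 20 libraries in the series. Every mouse was at postnatal day 40, and 1000 cells per mouse were sorted from frontal cortex by high CD11b and low CD45, so each library was taken as 1 mouse. The genotype names are read here as human C4A on 1 allele (hC4A/-) and human C4B on 1 allele (hC4B/-). The series' design text calls the mice humanized and transgenic, but the labels give no promoter, no sex and no statement on the mouse C4 genes in either genotype. The other 11 libraries, from C4-/-, hC4A/A and WT mice, entered only the estimate of the spread and the levels given for orientation.

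C4 is a plasma protein of the classical complement pathway. After C1q binds a target, C4 is cleaved and its larger fragment attaches covalently to nearby surfaces, where it helps to deposit C3. Human C4A and C4B are 2 near-identical isotypes that differ in a few residues close to the reactive thioester, which shifts the preference for the chemical groups they bind. Microglia, the resident macrophages of the brain, carry receptors for C3 fragments and remove synapses in development, and the comparison of the 2 isotypes asks whether they leave these cells in different states.

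The deposited counts cover mouse genes, so transcripts of human C4A and C4B were not measured here. What can be read in both groups is mouse C4b, which encodes mouse C4, and its neighbouring copy C4a, also known as sex-limited protein. Both lie on the minus strand of GRCm38 chromosome 17, C4b at 34728380 to 34743882 and C4a at 34809092 to 34823464. Their longest GENCODE transcripts were identical at 5160 of 5367 aligned positions (96.1%), which matters because a read that aligned to both copies was left out of the counts. The 90 bases below come from positions 3372 to 3461 of the C4b transcript and 3365 to 3454 of the C4a transcript, in the thioester region, and capitals mark the 4 positions at which the mouse copies differ.
C4b: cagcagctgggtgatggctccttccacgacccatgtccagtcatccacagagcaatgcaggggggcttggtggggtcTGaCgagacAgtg
C4a: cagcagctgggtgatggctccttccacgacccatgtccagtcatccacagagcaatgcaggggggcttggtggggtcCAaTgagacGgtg
A long run at the start of this window is shared by both copies letter for letter.

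The libraries were shallow, and 2 of the 4 hC4B/- libraries stood apart. Gene counts ran from 1129302 to 2735181 in hC4A/- libraries and from 1416287 to 2155808 in hC4B/- libraries. Between 11348 and 18753 genes had a count in hC4A/- libraries, whereas hC4B/- replicates 1 to 4 had 14312, 30041, 30176 and 11471. Olfactory and vomeronasal receptor genes, which are silent in microglia, had a count for 93 to 338 of 1731 genes in hC4A/- libraries, against 175, 1074, 1006 and 124 in hC4B/- replicates 1 to 4. Whether the reads of these 2 libraries came from microglial RNA alone was not tested, and their CPM values are read with that limit. Results are therefore given with all 9 libraries and again without hC4B/- replicates 2 and 3. Genes over satellite-like sequence took 13.3% to 58.5% of gene counts in hC4A/- libraries and 28.3% to 81.0% in hC4B/- libraries. Replicates 3 and 4 of hC4A/- held 731 and 958 counts of Y-linked genes and no Xist, whereas the other 3 hC4A/- libraries and every hC4B/- library held at least 103 counts of Xist and at most 3 Y-linked counts.

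**Figure D1:**
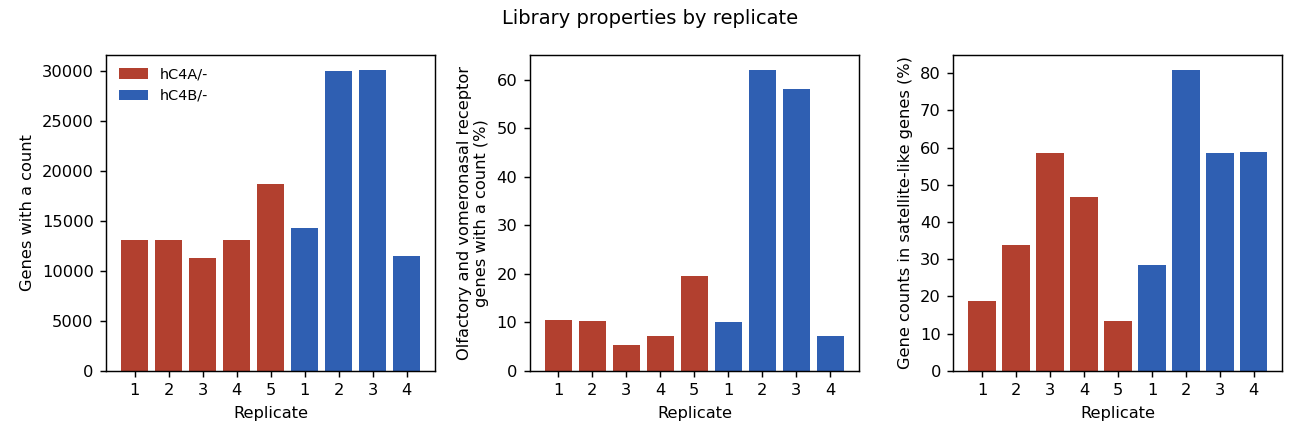
Genes with a count, percentage of receptor genes with a count and percentage of gene counts in satellite-like genes, 1 bar per library, for hC4A/- replicates 1 to 5 (red) and hC4B/- replicates 1 to 4 (blue). hC4B/- replicates 2 and 3 have 30041 and 30176 genes with a count, above every other library shown.

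The sorted cells carried a microglial profile in both genotypes. All 13 microglial markers, among them P2ry12, Tmem119 and Cx3cr1, had counts in every library. Their summed level, in CPM (gene counts scaled to a common library size by the TMM method), was 5913 to 10167 in hC4A/- libraries and 6056 to 9436 in hC4B/- libraries, and the ranges overlap. P2ry12, a purine receptor of resting microglia, had a median of 441 CPM (378 to 876) in hC4A/- and 471 CPM (350 to 664) in hC4B/-. Border macrophage markers summed to 376 to 878 CPM in hC4A/- and 341 to 550 CPM in hC4B/-, nearly all of it Stab1 (346 to 845 CPM in hC4A/- and 295 to 506 CPM in hC4B/-). Cd163, F13a1, Pf4, Ms4a7 and Clec12a, 5 of the 9 markers, were at 0 in every hC4A/- library and reached at most 6.03 CPM in hC4B/-. The 6 astrocyte markers summed to 294 to 522 CPM in hC4A/- and 55.8 to 295 CPM in hC4B/-, mainly through the glutamate transporter Slc1a3. Of the other 5, Slc1a2 had a median of 20.6 CPM in hC4A/- and 16.6 CPM in hC4B/-, whereas the medians of Gfap (0 and 0.706 CPM), Aqp4 (0 and 2.24 CPM), Aldh1l1 (0 and 1.36 CPM) and Gja1 (2.38 and 4.55 CPM) were lower in hC4A/- than in hC4B/-.

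No gene differed between the genotypes after adjustment. With an adjusted p under 0.05 as the threshold, edgeR's quasi-likelihood test passed 0 of 12680 genes (0.0%) in all 9 libraries, where the smallest adjusted p was 0.146. It passed 0 of 11801 genes (0.0%) without hC4B/- replicates 2 and 3, where the smallest was 0.618. Spread between mice was wide, with a biological coefficient of variation of 1.03. DESeq2 called 58 genes (0.457%), 6 higher and 52 lower in hC4A/-. The Y-linked gene Ddx3y was among the 6 higher. Of the 9 libraries, only hC4A/- replicates 3 and 4 held more than 3 Y-linked counts. Of the 58, 35 had their highest count in hC4B/- replicate 2 or 3. Genes called lower in hC4A/- are bound to peak mostly in hC4B/-, and 4486 of all 12680 genes tested (35.4%) had their highest CPM in those 2 libraries. Limma voom called 0 genes (0.0%). Every "higher" and "lower" below is a direction of the measured levels in genes that did not pass the edgeR test after adjustment.

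Before adjustment the picture was lopsided. With all 9 libraries, 2122 genes (16.7%) had an unadjusted p under 0.05, of which 407 (3.21%) were higher and 1715 (13.5%) were lower in hC4A/-. Of the 1715 lower genes, 1452 (84.7%) had their highest level in hC4B/- replicate 2 or 3, as did 4486 of all 12680 genes tested (35.4%). Genes picked as lower in hC4A/- are bound to peak mostly in hC4B/-, so the 84.7% describes where they peaked among the 4 libraries. Without these 2 libraries 694 genes (5.88%) were under that threshold, 350 higher (2.97%) and 344 lower (2.92%), and the median over all genes, on the log2 fold change scale, was 0.17 in place of -0.14. All 407 of the higher genes kept their direction there, with a median log2 fold change of 2.38 in place of 2.53, and 115 also had an unadjusted p under 0.05. Of the 1715 lower genes 1152 were tested there, 768 kept their direction, and 272 also had an unadjusted p under 0.05. The higher and lower genes were picked with all 9 libraries, which include every library kept here. A kept direction is therefore not an independent check.

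**Figure D2:**
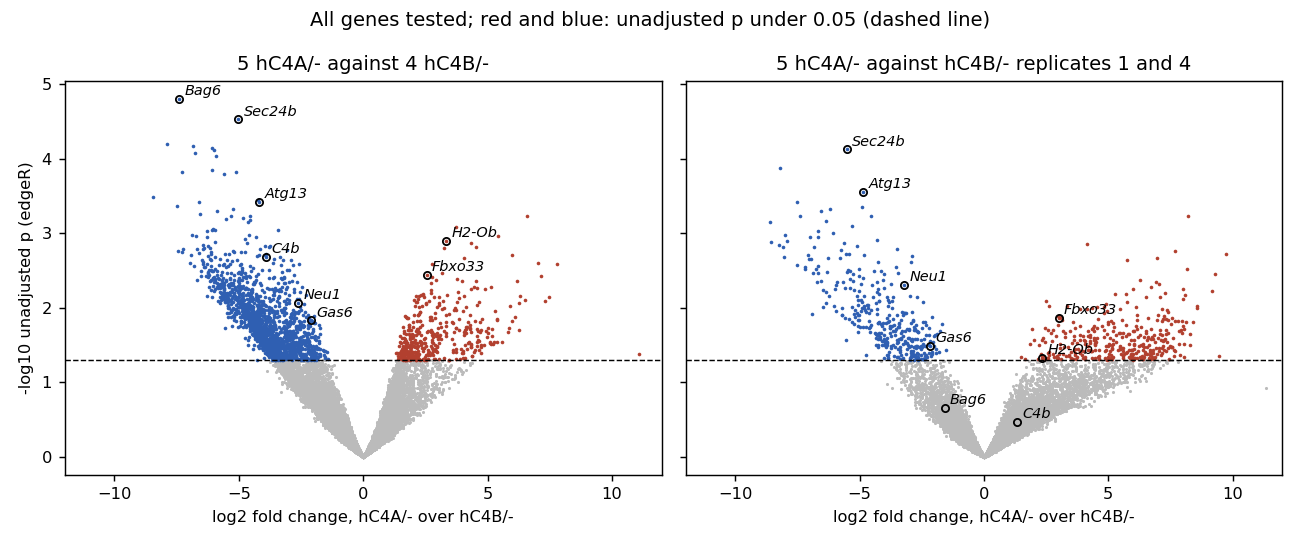
Log2 fold change of hC4A/- over hC4B/- (x axis) against minus log10 of the unadjusted edgeR p (y axis) for every gene tested, with all 9 libraries (left) and without hC4B/- replicates 2 and 3 (right). Red and blue points have an unadjusted p under 0.05, 407 higher and 1715 lower on the left, 350 and 344 on the right. Circles mark 8 genes named in the text, and Bag6 and C4b leave the blue points on the right.

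Sec24b (chromosome 3, 129982759 to 130061553), which encodes a cargo-selecting subunit of the COPII coat on vesicles leaving the endoplasmic reticulum, separated the genotypes in every library. It had 0, 1.61, 1.37, 1.17 and 2.38 CPM in hC4A/- replicates 1 to 5, against 42.3, 42.2, 32.0 and 69.4 CPM in hC4B/- replicates 1 to 4. Every hC4A/- library lay far below every hC4B/- library, and the 2 broad hC4B/- libraries did not stand out. The log2 fold change was -5.03 ± 1.03 (SE; edgeR adjusted p = 0.146) with all libraries and -5.51 ± 1.17 without hC4B/- replicates 2 and 3. Sec24b was called by DESeq2 (adjusted p = 1.9e-04), by DESeq2 without the 2 libraries (adjusted p = 0.0271), without a filter on low counts (edgeR adjusted p = 0.0297) and by edgeR on the 9 libraries alone (adjusted p = 0.0336). Over all alternatives its adjusted p ran from 1.9e-04 to 0.876. Cbx7 and Zmiz2, whose direction reversed without hC4B/- replicates 2 and 3, were also called in 4 alternatives each, so the number of calls does not set Sec24b apart. The other genotypes spanned both levels, with 2.15 to 65.2 CPM in C4-/- libraries, 3.22 to 35.0 CPM in hC4A/A libraries and 5.34 to 19.9 CPM in WT libraries.

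Other genes were lower in every hC4A/- library than in any hC4B/- library, a separation found in 179 of 12680 genes (1.41%). The named genes among them were picked for small p-values, so their separation describes them and does not test them. Atg13 (chromosome 2, 91674618 to 91710576), a subunit of the complex that starts autophagy, had 2.76, 1.07, 0.687, 3.51 and 1.36 CPM in hC4A/- and 91.0, 18.1, 10.2 and 20.5 CPM in hC4B/-. Its log2 fold change was -4.18 ± 1.05 with all libraries and -4.86 ± 1.16 without hC4B/- replicates 2 and 3. Arap2 (chromosome 5, 62602445 to 62766159), a GTPase-activating protein for Arf6, had 0.69, 1.07, 0, 0 and 1.36 CPM in hC4A/- and 13.7, 15.7, 10.2 and 15.3 CPM in hC4B/-. The 4 hC4B/- values lie within a narrow band, and the log2 fold changes were -4.22 ± 1.06 and -4.53 ± 1.15. Cry1 (chromosome 10, 85131700 to 85185064), a repressor in the circadian clock, had 0.585 to 2.69 CPM in hC4A/- and 27.8, 6.03, 6.13 and 40.2 CPM in hC4B/-.

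Genes of the lysosome and of phagocytosis lay on both sides. Gas6 (chromosome 8, 13465374 to 13494490), a ligand that bridges dying cells to TAM receptors, had 5.52, 8.06, 6.87, 25.2 and 8.51 CPM in hC4A/-, against 61.1, 36.2, 58.5 and 32.2 CPM in hC4B/-. The highest hC4A/- library stayed below the lowest hC4B/- library, and the log2 fold change was -2.11 ± 0.82 with all libraries and -2.16 ± 0.95 without hC4B/- replicates 2 and 3. Neu1 (chromosome 17, 34931253 to 34935953), the lysosomal sialidase, had 4.83, 3.22, 1.37, 4.1 and 9.53 CPM in hC4A/- and 45.3, 26.5, 11.6 and 32.2 CPM in hC4B/-. The groups do not overlap, and the log2 fold changes were -2.61 ± 0.93 and -3.22 ± 1.05. Lipa (chromosome 19, 34492318 to 34527474), the lysosomal acid lipase, went the other way, with 82.1, 75.8, 48.7, 69.1 and 60.6 CPM in hC4A/- and 21.4, 14.5, 15.7 and 26.3 CPM in hC4B/-. The log2 fold change of Lipa was 1.78 ± 0.73 with all libraries and 1.37 ± 0.90 without hC4B/- replicates 2 and 3. The list of phagocytosis and lysosome genes does not hold Neu1. Of its 40 genes 18 were above 0 and 22 below, with a median log2 fold change of -0.05 beside -0.14 for all genes tested. At an unadjusted p under 0.05, 2 were higher and 3 lower (3.21% and 13.5% of all genes). Without hC4B/- replicates 2 and 3, 0 were higher and 1 lower (2.97% and 2.92%), with a median of -0.01 beside 0.17. Lamp1, also in the list, had -1.73 ± 0.72, and -0.93 ± 0.81 without those libraries, and its groups overlapped.

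Several genes lower in hC4A/- rest on few counts or on 1 library. Elavl3, a neuronal RNA-binding protein, had 2 counts over the 5 hC4A/- libraries, against 159, 4.82, 5.44 and 2.19 CPM in hC4B/- replicates 1 to 4. The ratio of hC4A/- to hC4B/- counts, corrected for depth, was 0.00329 (exact 95% interval 0.000397 to 0.0120, counting error only), and replicate 1 supplied 373 of the counts. Prtg and Tm7sf2 had 1 count each in hC4A/-, with ratios of 0.00769 (0.000192 to 0.0440) and 0.0177 (0.000437 to 0.105). Stard4, a sterol carrier, had no count in hC4A/- and was at least 50.7-fold lower there, with the group's floor set at 3 counts, yet hC4B/- replicate 4 also had none.

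**Figure D3:**
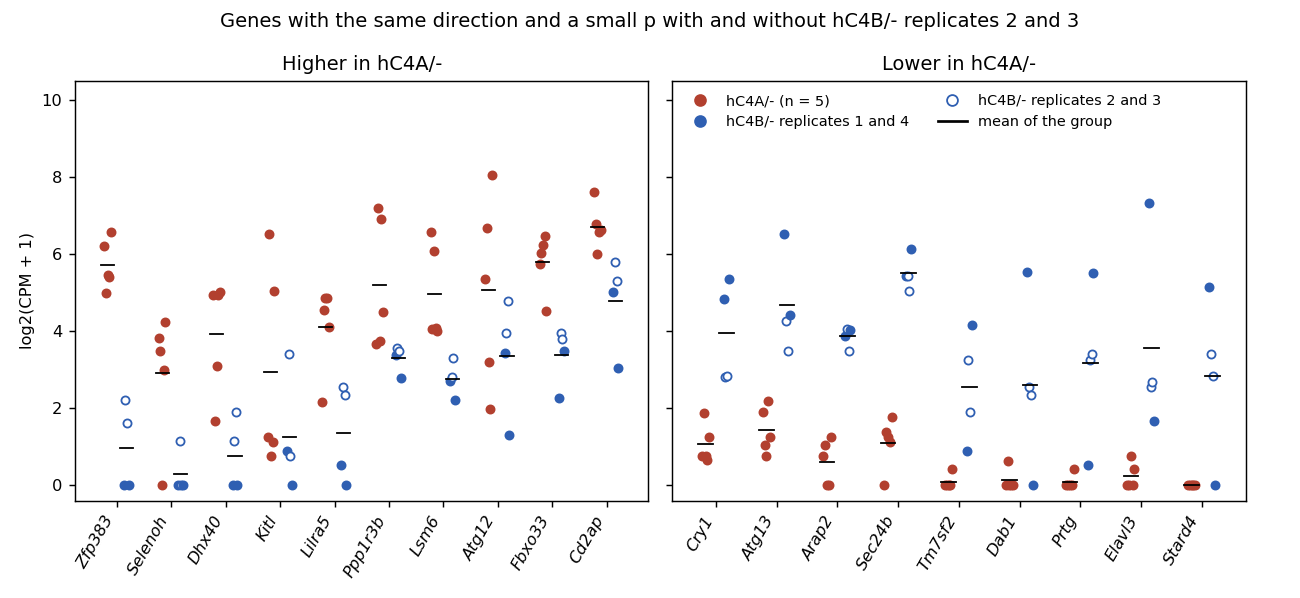
Log2(CPM + 1) by library of 19 genes of small p both with and without hC4B/- replicates 2 and 3, 10 higher (left) and 9 lower (right) in hC4A/-. Red points are hC4A/- libraries and blue points hC4B/- libraries, open for replicates 2 and 3, and lines are group means. Sec24b and Arap2 show 4 close hC4B/- points above all hC4A/- points, whereas Elavl3 and Dab1 have 1 high hC4B/- point.

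Zfp383 (chromosome 7, 29908223 to 29916813), a zinc finger gene, had 73.2, 30.6, 43.3, 41.6 and 95.3 CPM in hC4A/-, against 0, 3.62, 2.04 and 0 CPM in hC4B/-. The lowest hC4A/- library was well above the highest hC4B/- library, and the log2 fold change was 5.43 ± 1.51 (edgeR adjusted p = 0.236). Zfp383 was also low elsewhere, with medians of 0 CPM in C4-/-, 3.23 CPM in hC4A/A and 0.383 CPM in WT libraries, although 1 WT library reached 22.1 CPM. All hC4A/- libraries were above all hC4B/- libraries in 137 genes (1.08%), and the groups separated in either direction in 316 (2.49%). Against hC4B/- replicates 1 and 4 alone, 475 genes (3.75%) lay above and 400 (3.15%) below, 875 in all (6.9%).

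H2-Ob (chromosome 17, 34238903 to 34254414), the beta chain of a modulator of MHC class II peptide loading, had 57.3, 72.5, 74.1, 158 and 317 CPM in hC4A/- and 4.70, 6.03, 5.44 and 38.0 CPM in hC4B/-. The groups do not overlap, and the log2 fold change was 3.32 ± 0.94 with all libraries and 2.33 ± 1.12 without hC4B/- replicates 2 and 3. Fbxo33 (chromosome 12, 59200655 to 59219725), an F-box protein, had 52.5, 64.5, 74.8, 87.8 and 22.1 CPM in hC4A/- and 3.84, 14.5, 12.9 and 10.2 CPM in hC4B/-, with log2 fold changes of 2.55 ± 0.81 and 3.00 ± 1.13. Cd2ap (chromosome 17, 42792951 to 42876665), an adaptor between membrane receptors and actin, had 195, 109, 63.2, 94.2 and 97.3 CPM in hC4A/- and 31.6, 54.3, 38.8 and 7.31 CPM in hC4B/-. Cd2ap is among the better covered of these genes, and its log2 fold changes were 1.76 ± 0.67 and 2.50 ± 0.87.

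Vps16, a subunit of the HOPS and CORVET tethers, had 138, 265, 58.4, 133 and 648 CPM in hC4A/- and 31.2, 12.1, 11.6 and 49.7 CPM in hC4B/-. Bet1l, a Golgi SNARE, had 93.2, 60.2, 22.7, 60.9 and 110 CPM in hC4A/- and 8.12, 4.82, 2.72 and 0.731 CPM in hC4B/-. Ing4, a reader of methylated histone H3, had 12.4, 15.05, 10.3, 99.5 and 156 CPM in hC4A/- and 4.70, 3.62, 3.403 and 5.85 CPM in hC4B/-. In all 3 genes no hC4A/- library fell within the hC4B/- range, and log2 fold changes were 3.24 ± 0.94 for Vps16, 4.04 ± 1.21 for Bet1l and 3.71 ± 1.00 for Ing4. Ing4 was carried largely by hC4A/- replicates 4 and 5. C1ql3, a secreted C1q-like protein, had 41.4 and 37.6 CPM in hC4A/- replicates 1 and 2 and no count in the 7 libraries left, at least 27.7-fold higher in hC4A/- over the group.

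The C1q genes, whose product starts the classical pathway, overlapped between the genotypes. C1qa had 570, 562, 441, 1028 and 1515 CPM in hC4A/- and 1117, 137, 1235 and 425 CPM in hC4B/-. C1qa was named here for its role and not for its values, and both genotypes spanned a similar range. Of 10 complement components tested, 6 were above 0 and 4 below, with a median log2 fold change of 0.17 beside -0.14 for all genes. The 2 with an unadjusted p under 0.05 were C4b and C4a, both lower, where 13.5% of all genes were. Of 17 complement receptors and regulators, 9 were above 0 and 8 below, and the 3 with an unadjusted p under 0.05, Csmd1, Csmd2 and Lrp1, were lower in hC4A/- and highest in hC4B/- replicates 2 and 3. Of all genes tested, 13.5% were lower at that threshold, so the count stands near the background.

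Mouse C4b turned with those 2 libraries. It had 12.4, 2.69, 3.43, 13.5 and 15.3 CPM in hC4A/-, against 3.84, 277, 291 and 2.92 CPM in hC4B/- replicates 1 to 4. Only hC4B/- replicates 2 and 3 lay above the hC4A/- range. C4b had a median of 30.6 CPM (3.76 to 103) in libraries labelled C4-/-, 6.77 and 351 CPM in the hC4A/A libraries, and a median of 0 CPM (0 to 1.53) in WT libraries. Its level thus went against the labels C4-/- and WT, and C4b does not check the genotype labels used here. The log2 fold change was -3.91 ± 1.16 with all libraries and 1.32 ± 1.34 without them, the opposite direction. C4a had 1 count over the 5 hC4A/- libraries and 12 and 5 counts in hC4B/- replicates 2 and 3. The part of the broad libraries in these values was not tested beyond leaving them out.

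The genes around C4 in the MHC class III region followed the same libraries. Of 29 tested, 6 were above 0 and 23 below, and 9 (with C4b and C4a among them) were lower in hC4A/- at an unadjusted p under 0.05, as were 13.5% of all genes, with a median log2 fold change of -1.54 beside -0.14 for all genes. Without hC4B/- replicates 2 and 3 the list had 16 above 0 and 11 below, with a median of 0.12 beside 0.17. The 2 genes at an unadjusted p under 0.05 there were Neu1, given above, and Nelfe, a subunit of the negative elongation factor named after its values were seen. Bag6, a chaperone, had the smallest unadjusted p of all genes with all 9 libraries, from 4.14, 3.76, 0.687, 2.34 and 6.81 CPM in hC4A/- and 18.4, 42.2, 2443 and 2.19 CPM in hC4B/-. A single library, hC4B/- replicate 3, held nearly all of it, and the log2 fold change was -7.41 ± 1.46 with all libraries and -1.58 ± 1.26 without replicates 2 and 3.

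The same library led 7 further genes of small p. Aloxe3, Cbx7, Zmiz2, Phf1, Rnf141, Umps and Jak3 had 381 to 1712 CPM in hC4B/- replicate 3, and at most 51.9 CPM in any other library of either genotype. Their log2 fold changes lay between -7.89 and -5.92. Without hC4B/- replicates 2 and 3, Jak3, a cytokine receptor kinase, was higher in hC4A/- (2.80 ± 1.57), and Aloxe3 was no longer tested. Rhob, a stress-induced GTPase, had 34.5, 36.5, 32.3, 36.3 and 52.7 CPM in hC4A/- and 44.0, 274, 566 and 32.9 CPM in hC4B/-, so that both broad libraries set it apart. Its log2 fold change was -2.57 ± 0.78 with all libraries and -0.11 ± 0.77 without them.

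By median log2 fold change, microglial state lists lay close to the centre of all genes, while their summed levels differed widely between hC4B/- libraries. Of 30 homeostatic genes 15 were above 0 and 15 below, with a median log2 fold change of -0.01, and none had an unadjusted p under 0.05. Without hC4B/- replicates 2 and 3 the split was again 15 and 15. The homeostatic list summed to 21259 to 35988 CPM in hC4A/-, and to 33976, 12463, 68869 and 20633 CPM in hC4B/- replicates 1 to 4. Of 23 genes of disease-associated microglia 12 were above 0 and 11 below, with a median of 0.03 beside -0.14 for all genes. Without hC4B/- replicates 2 and 3, 9 were above 0 and 14 below, with a median of -0.10 beside 0.17. The disease-associated list summed to 5229 to 9856 CPM in hC4A/-, and to 8845, 1406, 3398 and 6273 CPM in hC4B/- replicates 1 to 4. The type I interferon list had 15 above and 15 below of 30. At an unadjusted p under 0.05, 2 were higher and 2 lower, beside 3.21% and 13.5% of all genes. Ifi27 was higher in hC4A/- (2.29 ± 0.85, and 1.33 ± 0.94 without hC4B/- replicates 2 and 3). Its groups overlapped, with 35.0 CPM in hC4A/- replicate 3 and 37.3 CPM in hC4B/- replicate 4. Mx1 was at 3 counts in hC4A/- against 19 in hC4B/-. Of 75 oxidative phosphorylation genes 39 were above 0 and 36 below, with Ndufa9 at 2.08 ± 0.91.

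Inflammatory cytokines and NF-kB genes leaned towards hC4A/-, with wide spread between mice. Of 29 tested, 20 were above 0 and 9 below, 3 were higher and 1 lower at an unadjusted p under 0.05 (3.21% and 13.5% of all genes), and the median log2 fold change was 0.33 beside -0.14 for all genes. The medians were 0.78 and 0.17 without hC4B/- replicates 2 and 3. Under RLE scaling, the size factors of DESeq2, the median of all genes was -0.47 and that of the list 0.01, with 15 above 0 and 14 below, so the distance to all genes was 0.46 under TMM scaling and 0.48 under RLE scaling. Il6 had 0.69, 2.69, 33.6, 84.3 and 100.03 CPM in hC4A/- and 5.55, 3.62, 2.04 and 0.731 CPM in hC4B/-. The high hC4A/- libraries were replicates 3, 4 and 5, and replicates 1 and 2 lay within or below the hC4B/- range. Ccl2, a monocyte chemoattractant, had 67.0, 10.7, 6.87, 2.93 and 55.8 CPM in hC4A/- and 7.69, 2.41, 3.403 and 0.731 CPM in hC4B/-, with log2 fold changes of 2.93 ± 0.95 and 2.61 ± 1.23. Different hC4A/- mice were high for the 2 cytokines, and replicate 5 was high for both.

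Cytosolic ribosomal protein genes had 54 of 76 above 0 under TMM scaling, with a median log2 fold change of 0.29 beside -0.14 for all genes. Under RLE scaling 33 were above 0 and 43 below, with a median of -0.06 beside -0.47. The distance to all genes was 0.43 and 0.41. Without hC4B/- replicates 2 and 3 they had 38 above 0 and 38 below, with a median of -0.002, below the 0.17 of all genes. Immediate early and dissociation genes had 13 above 0 and 18 below, with a median of -0.40, and 15 and 13 with a median of 0.02 without those libraries.

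**Figure D4:**
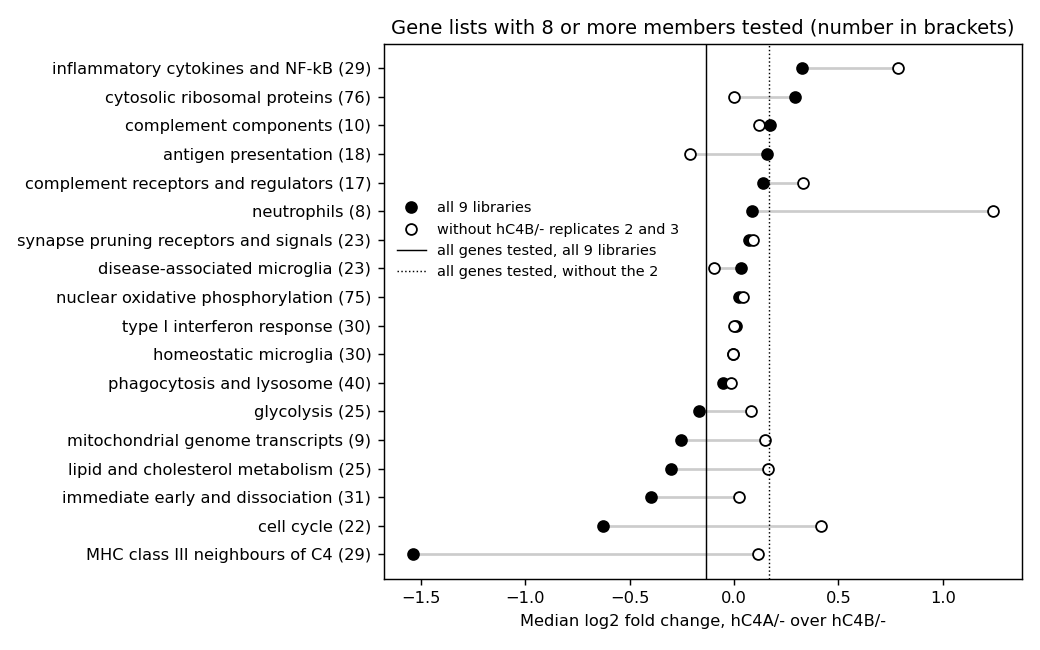
Median log2 fold change of hC4A/- over hC4B/- for each gene list with 8 or more members tested, with all 9 libraries (filled) and without hC4B/- replicates 2 and 3 (open). Vertical lines are the medians of all genes tested, -0.14 (solid) and 0.17 (dotted). The MHC class III list lies at -1.54 with all libraries and at 0.12 without the 2.

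Slc1a3 had 518, 471, 439, 255 and 380 CPM in hC4A/- and 155, 48.2, 30.6 and 253 CPM in hC4B/-, with the closest libraries at 255 and 253 CPM. Its log2 fold change was 1.76 ± 0.77 with all libraries and 0.88 ± 0.79 without hC4B/- replicates 2 and 3. Il7r, the interleukin 7 receptor, had 168, 279, 96.8, 131 and 184 CPM in hC4A/- and 82.4, 20.5, 29.3 and 49.0 CPM in hC4B/-. The Y-linked gene Eif2s3y had 89.2 and 118 CPM in hC4A/- replicates 3 and 4 and at most 1.21 CPM in any other library of either genotype. With hC4A/- replicates 3 and 4 left out, log2 fold changes were -5.23 for Sec24b, -4.39 for Atg13, -2.78 for Gas6, -2.49 for Neu1 and 5.51 for Zfp383.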

How the data were processed

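Groups were taken from the sample titles. The values deposited by the authors are unnormalized read counts for each gene in each library. STAR and GRCm38 are named in the submitters' processing notes, without versions. The column that ignores strand was used, so reads of either strand count for a gene. Reads that could not be assigned to a single gene fell in a summary line as ambiguous (0.897% to 5.86% of all reads). The summary lines were dropped: unmapped reads made up 14.8% to 42.1% and multimapping reads 13.2% to 28.9% of all reads. A deposited matrix of 24057 genes labelled as normalized held the same raw counts in all 481140 values. Gene counts ran from 855099 to 2735181 per library, and since amplified cDNA was counted with no molecular identifiers, the intervals given describe counting error alone.

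All 20 libraries entered 1 edgeR quasi-likelihood fit (edgeR 4.0.16, R 4.3.3, robust) with a coefficient per genotype, TMM scaling, filterByExpr and Benjamini-Hochberg adjustment over all genes tested at 0.05. A second fit left out hC4B/- replicates 2 and 3. DESeq2 1.42.0 and limma voom (limma 3.58.1) were alternatives. SE is the size of the log2 fold change over the square root of F, and ratios with 1 to 3 counts carry an exact 95% binomial interval. P values set the difference between the genotypes against the spread between mice within genotypes, estimated over all libraries of a fit, including the other genotypes.

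Named genes are the 10 of smallest p in each direction, the 10 in each direction smallest in both fits, up to 3 per list at an unadjusted p under 0.05, and C4b and C4a, 72 in all. Predicted, clone-based and satellite-like genes were passed over. A named gene and a marker sum are not reported here. The members, lists and tests were chosen with earlier results of these data known. Same-numbered replicates of the genotypes had correlations of -0.01, -0.02, -0.02 and -0.03 in their deviations from the group means. The labels give no pairing and the mice were taken as unpaired, but such correlations cannot show that no litter or sort was shared.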

Additional observations from a re-analysis of the deposited data

Results flagged for a closer look

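Within each genotype, 150 sets of values were checked for a library far from the others by Dixon's gap test, and 22 were flagged. Chance alone flags about 1 in 20. Most rest on 1 or 2 counts in 1 library with none in the others. In hC4A/- these were Prtg, Tm7sf2, Dusp2, Birc5 and Mki67 at 0.340 CPM in replicate 5, Dab1 and C4a at 0.537 CPM in replicate 2, and Csmd1 and Ccnd2 at 0.687 CPM in replicate 3. In hC4B/- they were Selenoh, Rpl24 and Eif2s3y at 1.21 CPM and Uty at 2.41 CPM in replicate 2.

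Replicate 5 of hC4A/- had 18753 genes with a count, against 11348 to 13084 in the other hC4A/- libraries. It was also high for Lamp1 at 40.8 CPM (the others 15.8 to 19.3), Rhob at 52.7 CPM (32.3 to 36.5) and Rnf141 at 8.51 CPM (0.585 to 1.61). Replicate 4 of hC4A/- was high for Gas6 at 25.2 CPM (5.52 to 8.51) and Slc16a1 at 5.85 CPM (0.690 to 1.37), and replicate 1 was low for Lilra5 at 3.45 CPM (16.3 to 28.1). In hC4B/-, replicate 4 was high for H2-Ob at 38.0 CPM (4.70 to 6.03). In replicate 1, 32.4% of the reads were assigned to no annotated feature (23.1% to 23.8% in the others).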

How the results depend on the processing

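Of the 72 named genes, 60 kept their direction in each of the 24 alternatives in which they were tested. Genes called numbered 0 with all 9 libraries, 36 without a filter on low counts, 58 by DESeq2, 1 on the 9 libraries alone and 0 to 8 with 1 library left out (8 without hC4B/- replicate 1, 5 without replicate 4, all lower). Without hC4B/- replicates 2 and 3 they numbered 0, with 8 by DESeq2 (the Y-linked Ddx3y and Eif2s3y among them) and 2 by limma voom. Genes higher at an unadjusted p under 0.05 numbered 407, against 247 with RLE scaling, 955 without the filter, 188 on the 9 libraries, 165 by voom without the 2 libraries and 190 to 601 with 1 left out. Genes lower numbered 1715, against 344 without the 2 libraries, 6247 without the filter, 627 by voom, 452 on the 9 libraries, 436 without the 4 libraries of over 27000 genes, 3061 without satellite-like genes, 963 without hC4A/- replicates 3 and 4, 289 without those and the 2, 278 by DESeq2 and 307 by voom without the 2, and 830 to 2108 with 1 left out (1108 without hC4B/- replicate 2, 830 without replicate 3). Higher genes were 19.2% of both directions together, 9.66% with RLE scaling, 44.2% by voom and 50.4% without the 2 libraries. With the replicate number as a block, 0 genes were called and 804 were lower, and the number was taken only as a label here. Under the block the log2 fold change of Ifi204 was -0.021 in place of 3.59.

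Directions reversed in these genes, given in the order without the 2 libraries, without the 4 broad libraries, without hC4A/- replicates 3 and 4 and the 2, DESeq2 without the 2, and voom without the 2. Log2 fold changes were 1.40, 1.43, 2.03, 1.46 and 0.60 for Cbx7, 0.87, 0.86, 1.40, 0.88 and 0.33 for Zmiz2, 0.57, 0.58, 0.96, 0.60 and 0.76 for Rnf141, 2.80, 2.81, 3.15, 2.91 and 2.19 for Jak3, 1.32, 1.32, 1.33, 1.34 and 1.05 for C4b, 0.78, 0.78, 0.77, 0.80 and 0.75 for Lrp1, and 3.17, 3.23, 3.81, 2.23 and 0.98 for Eno2. Pdgfrb, not tested without the 4, had 1.95, 1.51, 0.96 and 0.51. With Y-linked counts as a covariate Eif2s3y, Kdm5d and Uty had -1.72, -0.37 and -1.36. Without hC4A/- replicates 3 and 4 Eif2s3y and Uty had -1.998 and -1.15. That covariate was built from these genes and Ddx3y, and hC4A/- replicates 3 and 4 held nearly all of their counts in the compared libraries. Neither setting is therefore a test of these genes. For the other genes the cause was not tested. The median detected gene held 3 to 9 counts, which limits what low genes can show.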
